A study of Mus musculus with 4 samples.

Results

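The proteasome is the barrel-shaped protease that degrades ubiquitin-tagged proteins, and its genes were chosen by symbol as those that start with Psm, a letter from a to g and a number. That rule found 50 genes with a probe among the 20886 genes with a symbol on the array. They encode 7 subunits of the outer alpha ring of the 20S core, 4 structural and 3 standard catalytic subunits of its beta ring, 3 immunoproteasome catalytic subunits, 2 tissue-specific 20S subunits, 6 ATPases and 3 other subunits of the 19S base, 8 subunits of the 19S lid, 3 chaperones of 19S assembly, 4 activators of the PA28 and PA200 families, the regulator PI31 and 4 chaperones of 20S assembly. The remaining 2, Psmc3ip and Psme3ip1, match the symbol but encode proteins named for binding a proteasome protein.

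RNA came from LSK cells, the sorted lineage-negative, Sca-1-positive, c-Kit-positive bone marrow fraction that contains hematopoietic stem cells and early progenitors, of C57BL/6 mice. The 4 groups were LSK cells grown from transplanted Sf3b1+/- marrow, LSK cells grown from transplanted wild-type marrow, LSK cells of native Sf3b1+/- mice and LSK cells of native wild-type mice, with 1 single-colour array each. Sf3b1+/- mice carry a single working copy of Sf3b1, a core splicing factor, and heterozygotes were used because embryos with neither copy die before they implant. Native cells were taken at the age of 20 weeks and transplanted cells 9 months after total marrow from CD45.2+ donors had been given to lethally irradiated CD45.1+ hosts, from which CD45.2+ cells were sorted. The design names 4 native mice and 5 recipients, and the number of mice behind each array is not stated there. Transplantation, irradiation of the host and the time of harvest all separate the transplanted from the native groups and cannot be told apart.

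In the 20S core, alpha rings gate the entrance and dock the regulators, while beta rings carry the active sites that cut proteins. The 19S particle binds ubiquitin chains, removes them, unfolds the substrate with its ATPases and feeds it into the core. Interferon-gamma induces 3 replacement active-site subunits, which form the immunoproteasome and favour peptides for MHC class I. Blood cells express immunoproteasome subunits without infection, and hematopoietic stem cells are known to depend on tight control of protein quality.

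Upstream sequences of Psmb5 and Psmb8 are shown because these genes encode the standard and the inducible form of the same active site and stand for 2 known routes of proteasome gene control. Each is the 250 bases before the gene start in RefSeq, build GRCm38.p6, read 5′ to 3′ on the gene's own strand. The capitals mark a match to the antioxidant response core TGACNNNGC, which Nfe2l1 and Nfe2l2 bind with small Maf proteins, in Psmb5 (chr14:54617996-54618245, minus strand), and a match to the interferon-gamma activated site TTCNNNGAA in Psmb8 (chr17:34197945-34198194, plus strand).
Psmb5: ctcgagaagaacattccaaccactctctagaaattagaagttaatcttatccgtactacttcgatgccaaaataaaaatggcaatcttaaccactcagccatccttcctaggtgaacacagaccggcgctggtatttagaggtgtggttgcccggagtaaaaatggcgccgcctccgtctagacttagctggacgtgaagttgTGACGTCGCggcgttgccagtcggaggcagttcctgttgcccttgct
Psmb8: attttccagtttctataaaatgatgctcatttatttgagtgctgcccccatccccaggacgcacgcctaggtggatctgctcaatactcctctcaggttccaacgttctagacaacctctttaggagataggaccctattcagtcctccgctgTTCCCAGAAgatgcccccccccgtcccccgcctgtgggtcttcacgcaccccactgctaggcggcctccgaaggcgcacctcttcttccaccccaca
The marked bases start at positions -47 in Psmb5 and -97 in Psmb8, counted from the gene start. Both strands were searched in the 42 members with such a window and in all 32851 windows of the table. TGACNNNGC was found in 5 members (11.9%), among them Psmb5, Psmc6 and Psmd12, against 10.2% of all windows. TTCNNNGAA was found in 2 members, Psmb8 and Psmg1, against 7.02% of all windows. CCAAT was found in 16 members (38.1%), against 33.9% of all windows. The interferon-stimulated core GAAANNGAA was found in 3 members, against 7.13%. The members thus hold these letters about as often as other genes do, and a match is a description of sequence alone.

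The arrays were alike in detection and spot spread but not in brightness. Before scaling, the 75th percentile signal of detected probes was 2686 in Sf3b1+/- transplanted cells against 1823 in wild-type transplanted cells. It was 1940 in Sf3b1+/- native cells against 1652 in wild-type native cells, so the Sf3b1+/- array was the brighter in each setting. The share of spots well above background lay between 47.7% and 51.5%, no spot was saturated, and replicate spots of a probe within an array had a standard deviation of 0.0989 to 0.122 on the log2 scale. Signals below are log2 of the processed signal over the 75th percentile of the detected probes of the same array, so 0 is the level of a fairly bright gene and differences are relative to the bulk of the array. Compared were the 13033 genes well above background on at least 2 arrays, 49 of the 50 members among them and 48 on all 4 arrays. The signal of Sf3b1 itself was -2.98 in Sf3b1+/- transplanted cells against -2.87 in wild-type transplanted cells, and -2.60 in Sf3b1+/- native cells against -2.19 in wild-type native cells, and the labels do not say whether its probe lies in the disrupted part. All 8 markers of stem and progenitor cells, Kit and Ly6a of the sorting gate included, were well above background on all 4 arrays. All 4 arrays shared 1 slide and 1 scan time, so group and slide position cannot be told apart, and with 1 array a group no difference between 2 arrays has a replicate check. In bulk RNA, fewer cells of a type and less RNA per cell cannot be told apart.

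The genotype comparison asks how LSK cells with a single Sf3b1 copy differ, in an irradiated host and in their own marrow. The standard 20S core was slightly lower in Sf3b1+/- cells in both settings. The 14 standard 20S subunits had a median difference of -0.31 in transplanted and -0.18 in native cells. Of the 14, 12 were lower in both, against 33.9% of all compared genes. Most of the 14 are bright, and of compared genes with a mean log2 signal above 2, 60.8% were lower in both. The 17 subunits of the 19S base and lid had medians of -0.01 in transplanted and -0.04 in native cells. The immunoproteasome trio had medians of 0.12 and -0.05, and the difference between these classes was not tested. These differences are small: in transplanted cells 5 members were at least 25% higher (10.2%, against 20.5% of all compared genes) and 9 at least 20% lower (18.4%, against 19.2%), which is the same fold in each direction, and in native cells 0 members were higher (against 10.1%) and 0 lower (against 11.6%) by that fold. The members were therefore past this fold no more often than other genes.

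Across all 4 arrays, genotype was tested in 1 additive limma fit with the setting as the second term. After Benjamini-Hochberg adjustment 0 of 49 members and 0% of all compared genes passed 0.05, and at an unadjusted p under 0.05 there were 0 members against 13.6% of all genes, with 7 members under normexp background correction and 6 under spike-in scaling. The smallest adjusted p of a member was 0.371, for Psma5. The fit has 1 residual degree of freedom a gene, and a p-value from it reflects only how these arrays vary, which can be technical.

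**Figure D1:**
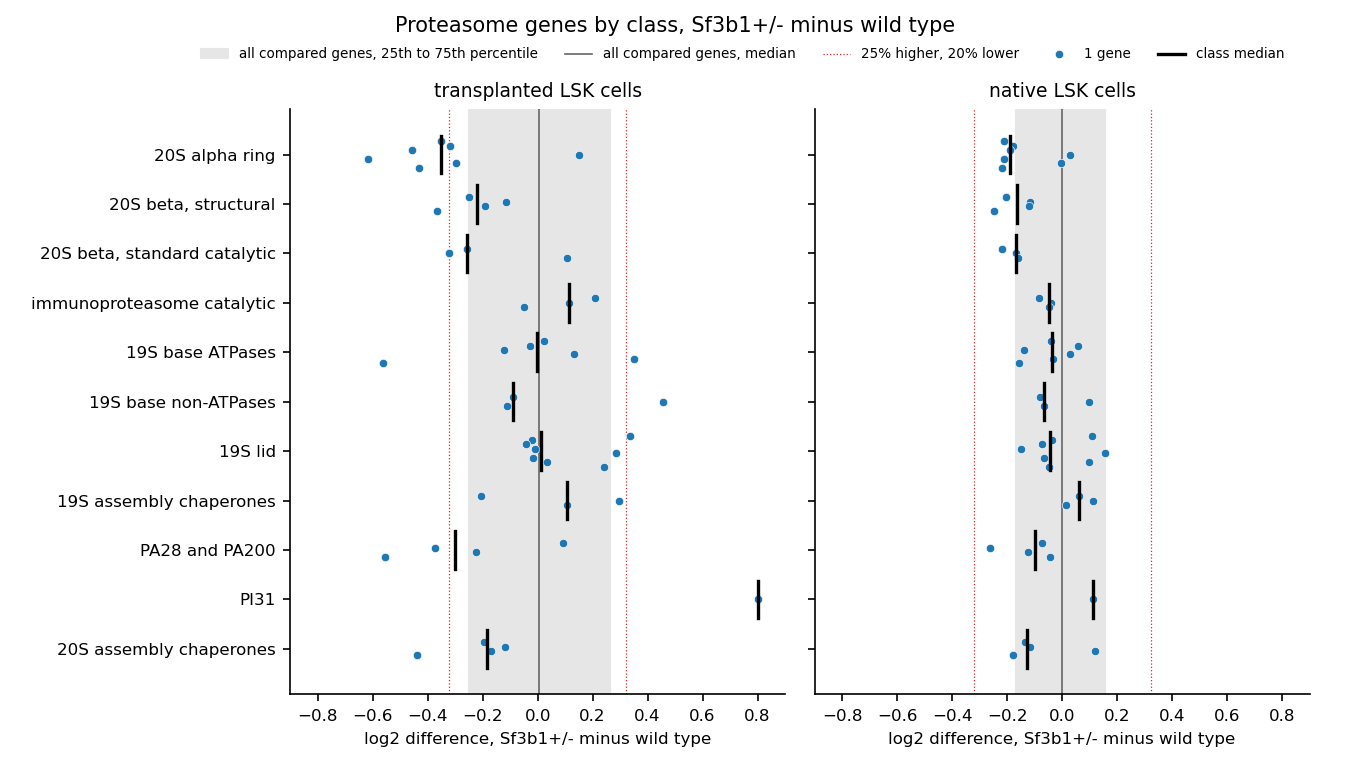
Log2 difference of Sf3b1+/- minus wild-type LSK cells for each compared proteasome gene (1 point a gene, 1 array a group), by class, in transplanted cells (left) and native cells (right). Grey bands span the 25th to 75th percentile of all 13033 compared genes, black ticks are class medians and dotted lines mark 25% higher and 20% lower. Psmb11, Psma8 and the genes that match by symbol alone are not drawn. The alpha ring lies furthest left, with medians of -0.35 and -0.19, and PI31 furthest right in transplanted cells at 0.80.

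The setting comparison sets transplanted against native cells within each genotype. Proteasome genes were mostly higher after transplantation, and all 14 standard 20S subunits were higher in both genotypes. The median over the 49 members was 0.19 in Sf3b1+/- cells and 0.20 in wild-type cells, where all compared genes had medians of 0.01 and 0.00. At least 25% higher were 12 members in Sf3b1+/- cells (24.5%, against 22.5% of all genes) and 15 in wild-type cells (30.6%, against 19.5%). Psma8 is among both, and it passed the filter on dim probes only through the transplanted arrays, so it had to be higher. Over the 48 members well above background on all 4 arrays, 11 were higher by that fold in Sf3b1+/- cells (22.9%, against 20.6% of the genes that meet the same condition) and 14 in wild-type cells (29.2%, against 17.2%). None was 20% lower in either, against 20.3% of all genes in Sf3b1+/- and 17.9% in wild-type cells. The count of higher members is thus near the background in Sf3b1+/- cells and above it in wild-type cells. Under some alternatives to scaling, filter and probe 1 member was 20% lower in one genotype.

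Psma4, Psma7, Psma8, Psmb1, Psmd8, Psmd13, Psmd14 and Psme2 were at least 25% higher in both genotypes, which is 8 of 49 members (16.3%), against 11.3% of all compared genes. Without Psma8 these are 7 of 48 members (14.6%), against 9.88% of the genes well above background on all 4 arrays. All 14 standard 20S subunits were higher in both genotypes, as were 36.9% of all genes. Of the 17 subunits of the 19S base and lid 7 were, and 4 were lower in both. In the additive limma fit 0 of 49 members passed an adjusted p of 0.05 for the setting, against 0.583% of all genes. At an unadjusted p under 0.05 there were 12 members, all higher (24.5%, against 25.8%), or 11 of 48 (22.9%) without Psma8, against 24.3% of the genes on all 4 arrays. With normexp background correction 3 members passed the adjusted threshold and with spike-in scaling 32 did. The genotype and setting comparisons use the same 4 arrays, so their values for a gene are not independent of each other.

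**Figure D2:**
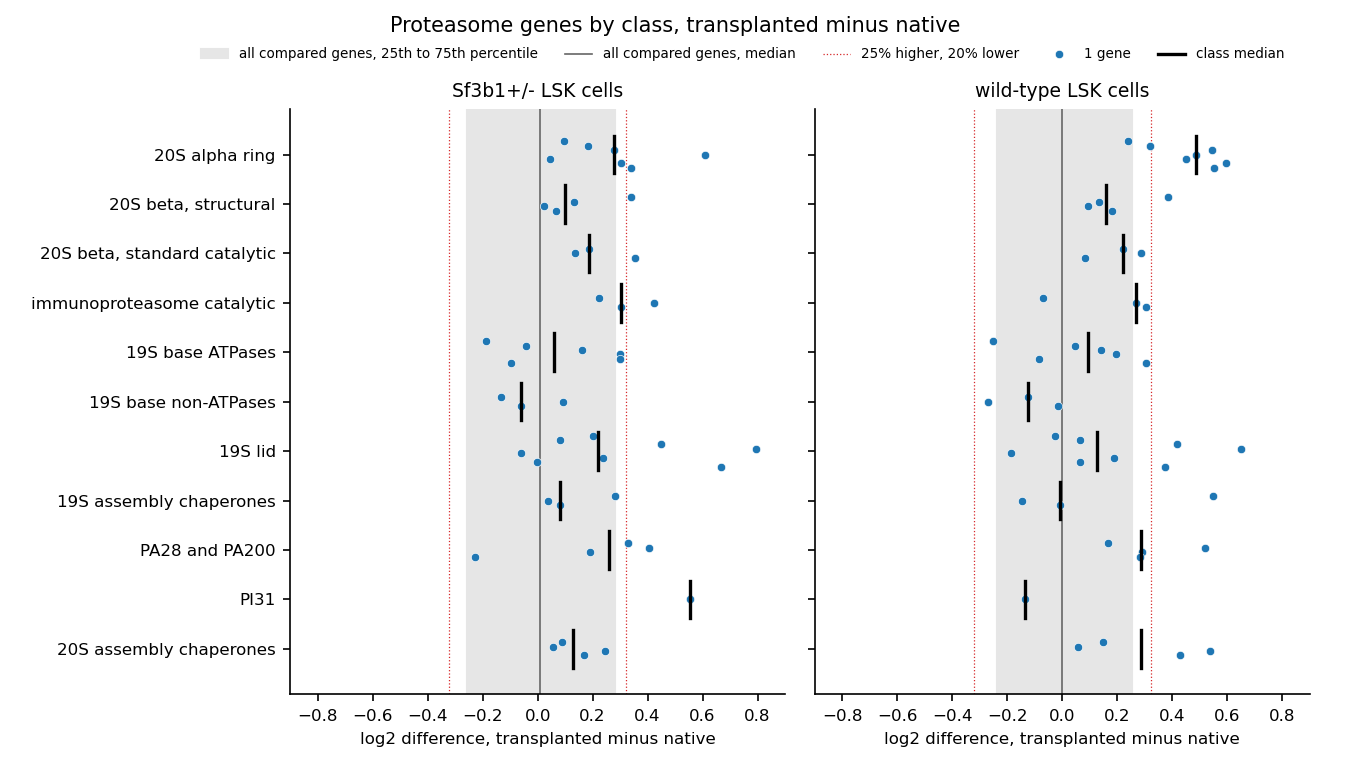
Log2 difference of transplanted minus native LSK cells for each compared proteasome gene (1 point a gene, 1 array a group), by class, in Sf3b1+/- cells (left) and wild-type cells (right). Bands, ticks and dotted lines are as in the genotype plot, and the same genes are left out. All alpha and beta ring points of the standard core lie right of 0, and no member lies left of the 20% lower line.

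The genotype difference moved with signal strength over the whole array. Among the 696 compared genes with a mean log2 signal above 3 the median was -0.23 in transplanted and -0.16 in native cells, and the 14 members in that range had medians of -0.22 and -0.15. Between 2 and 3 the 582 genes had medians of -0.08 and -0.06, and the 9 members -0.20 and -0.08. Standard 20S genes are mostly bright: of all genes with a mean signal above 2, 60.8% were lower in Sf3b1+/- cells in both settings. Set against the genes of their own signal range, the standard 20S subunits stood at a median of -0.14 in transplanted and -0.06 in native cells, and 5 of 14 lay under the lower quartile of that range in each setting. Cyclic loess, which removes trends with signal, left their median at -0.16 in transplanted and -0.10 in native cells, where all compared genes moved to 0.06 and 0.03. What share of the 20S difference goes with signal strength was not tested further.

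The setting difference did not move with signal in this way. Genes with a signal above 3 had medians of 0.01 in Sf3b1+/- and 0.05 in wild-type cells, while the 14 members in that range had 0.17 and 0.17. In the 2 to 3 range the 582 genes had 0.04 and 0.02, and the 9 members 0.10 and 0.27. Of the 14 standard 20S subunits 8 lay above the upper quartile of their own signal range in each genotype and none lay under its median.

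**Figure D3:**
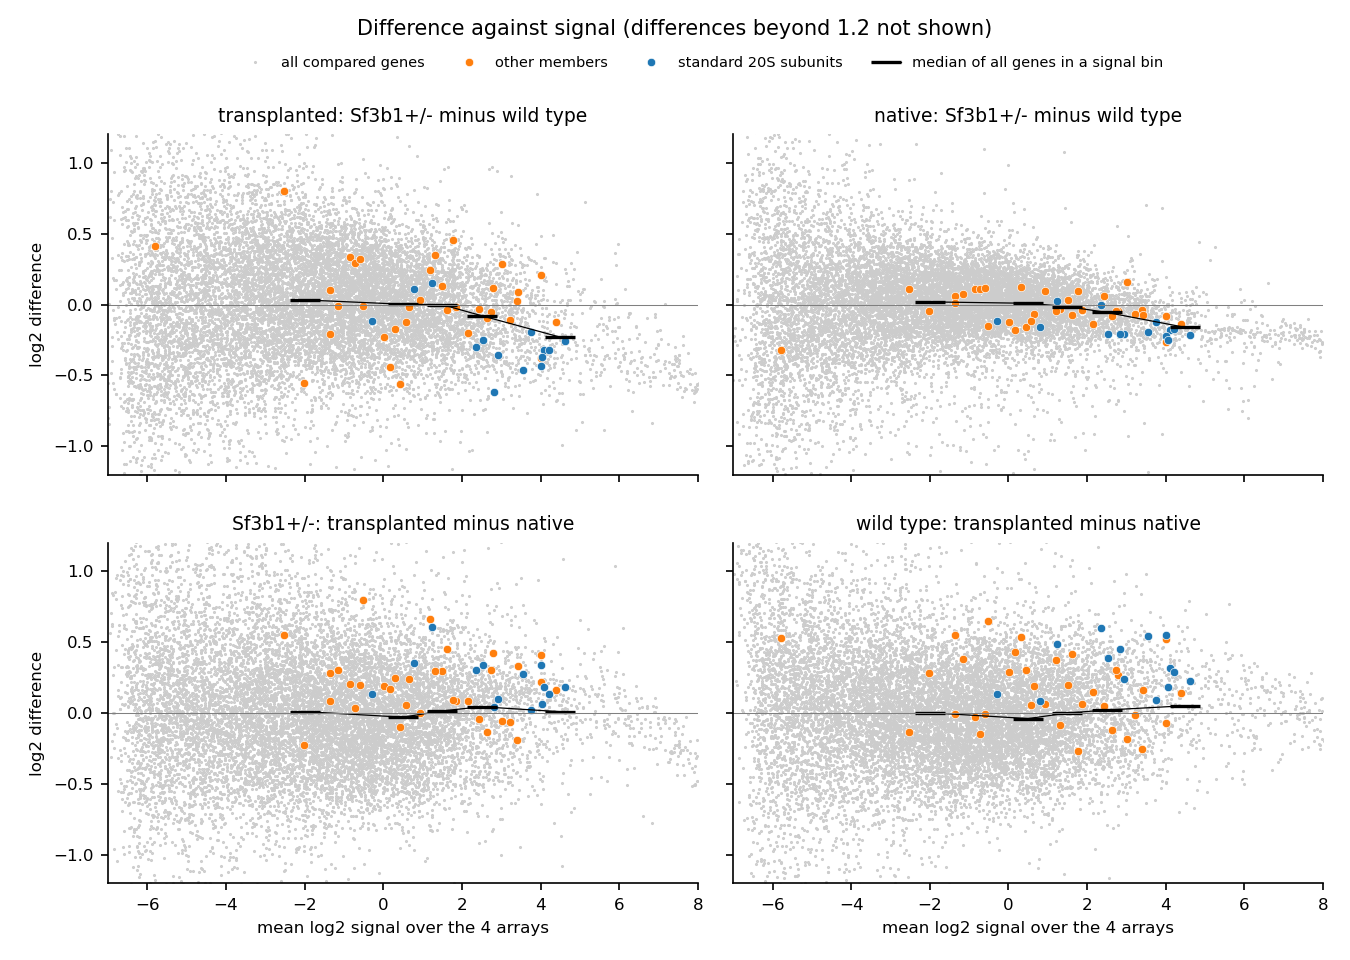
Log2 difference against mean log2 signal over the 4 arrays for all compared genes (grey), standard 20S subunits (blue) and other proteasome genes (orange), for Sf3b1+/- minus wild type (top) and transplanted minus native (bottom). Black lines are medians of all genes in signal ranges. In the upper panels the line drops to -0.23 (transplanted) and -0.16 (native) at the bright end and 11 of the 14 blue points lie under it in each, whereas in the lower panels the line stays between -0.04 and 0.05 and the blue points lie above it.

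Within the alpha ring, 6 of 7 subunits were lower in Sf3b1+/- cells in each setting. Of all 13033 compared genes, 6455 were lower in transplanted and 6551 in native cells. All 7 subunits were higher after transplantation in each genotype, as were 6620 genes in Sf3b1+/- and 6530 in wild-type cells. Psma5 differed most by genotype, with a signal of 2.64 in Sf3b1+/- transplanted cells against 3.26 in wild-type transplanted cells, and 2.60 in Sf3b1+/- native cells against 2.81 in wild-type native cells. The wild-type transplanted array was thus high against the other 3, which gives differences of -0.62 in transplanted cells (65.3% of wild type) and -0.21 in native cells. Its limma estimate for genotype was -0.41 ± 0.16 (SE, adjusted p = 0.371). Psma7 gave 4.01 in Sf3b1+/- transplanted cells against 4.44 in wild-type transplanted cells, and 3.67 in Sf3b1+/- native cells against 3.89 in wild-type native cells, differences of -0.43 and -0.22. It had the ring's lowest native difference and was higher after transplantation by 0.34 in Sf3b1+/- and 0.55 in wild-type cells.

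By its brighter probe, Psma4 was the alpha subunit that went the other way by genotype. Its signal was 1.58 in Sf3b1+/- transplanted cells against 1.43 in wild-type transplanted cells, and 0.97 in Sf3b1+/- native cells against 0.95 in wild-type native cells. Both transplanted arrays lay above both native ones, and its setting estimate in the limma fit was 0.55 ± 0.13 (SE, adjusted p = 0.129). A second, dimmer Psma4 probe read 0.76 and 0.44 for the setting in Sf3b1+/- and wild-type cells, against 0.61 and 0.49 for the first. By genotype it read 0.30 in transplanted and -0.02 in native cells, against 0.15 and 0.03 for the first, so the native sign depends on the probe. The other alpha genes, Psma1, Psma2, Psma3 and Psma6, had genotype differences of -0.46 to -0.30 in transplanted and -0.21 to -0.01 in native cells.

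The structural beta subunits, which have no active site, followed the alpha ring at smaller size. Psmb4 showed the widest gap, with 3.92 in Sf3b1+/- transplanted cells against 4.29 in wild-type transplanted cells, and 3.86 in Sf3b1+/- native cells against 4.11 in wild-type native cells, differences of -0.37 and -0.25. Psmb2 showed the narrowest, with -0.27 in Sf3b1+/- transplanted cells against -0.15 in wild-type transplanted cells, and -0.40 in Sf3b1+/- native cells against -0.29 in wild-type native cells. That is a difference of -0.12 in each setting, about the standard deviation of a single spot within an array. A difference between arrays varies by more than a single spot does, and that spread also leaves out variation between arrays. Psmb1 and Psmb3 lay between them, and Psmb1 was the structural beta gene with the largest setting difference, 0.34 in Sf3b1+/- and 0.39 in wild-type cells.

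Among the standard catalytic subunits, Psmb5 carries the chymotrypsin-like activity, the main target of clinical proteasome inhibitors. Its signal was 4.60 in Sf3b1+/- transplanted cells against 4.85 in wild-type transplanted cells, and 4.41 in Sf3b1+/- native cells against 4.63 in wild-type native cells. Sf3b1+/- cells thus lay lower by a similar amount in each setting, -0.26 and -0.22, and a second probe read -0.20 and -0.14. Psmb6, the caspase-like subunit, gave 4.15 in Sf3b1+/- transplanted cells against 4.47 in wild-type transplanted cells, and 4.01 in Sf3b1+/- native cells against 4.18 in wild-type native cells, differences of -0.32 and -0.17. Psmb7, the trypsin-like subunit, gave 0.95 in Sf3b1+/- transplanted cells against 0.85 in wild-type transplanted cells, and 0.60 in Sf3b1+/- native cells against 0.76 in wild-type native cells. Its genotype difference therefore had opposite signs, 0.11 in transplanted and -0.16 in native cells. Annotated pseudogenes of Psma5, Psmb5, Psmb6 and Psmb7 resemble their parent genes, and Psme2b resembles Psme2, so those probes may read more than 1 transcript.

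The immunoproteasome subunits take the places of these 3: Psmb8 replaces Psmb5, Psmb9 replaces Psmb6 and Psmb10 replaces Psmb7. Psmb8 gave 3.02 in Sf3b1+/- transplanted cells against 2.90 in wild-type transplanted cells, and 2.59 in Sf3b1+/- native cells against 2.63 in wild-type native cells. Both transplanted arrays lay above both native ones, by 0.42 in Sf3b1+/- and 0.27 in wild-type cells, and the genotype differences were 0.12 and -0.04. Psmb9 gave 2.86 in Sf3b1+/- transplanted cells against 2.91 in wild-type transplanted cells, and 2.56 in Sf3b1+/- native cells against 2.60 in wild-type native cells. It likewise split by setting, 0.30 and 0.31, and hardly by genotype, -0.05 in each setting. Psmb10 gave 4.14 in Sf3b1+/- transplanted cells against 3.93 in wild-type transplanted cells, and 3.92 in Sf3b1+/- native cells against 4.00 in wild-type native cells. Only the Sf3b1+/- transplanted array stood out among these 4, and the genotype differences were 0.21 in transplanted and -0.08 in native cells.

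**Figure D4:**
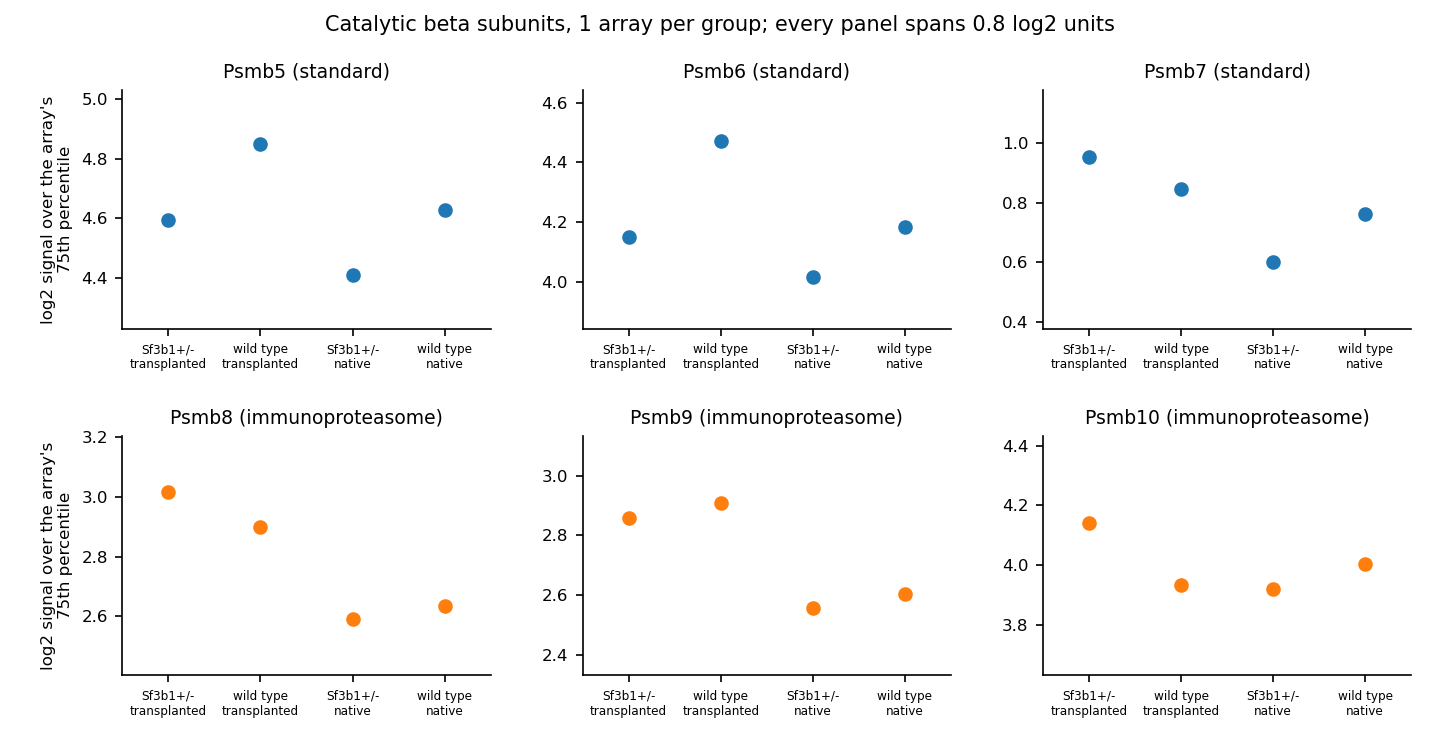
Log2 signal over the array's 75th percentile of the standard catalytic subunits (upper row, blue) and of the immunoproteasome subunit that replaces each (lower row, orange), 1 point per array. Psmb5 and Psmb6 are lower in Sf3b1+/- than in wild-type cells in each setting, while Psmb8 and Psmb9 separate transplanted from native arrays.

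The difference of an immunoproteasome subunit minus that of its standard counterpart measures a shift between the forms without setting one probe's level against another's. By genotype it was positive for all 3 pairs: 0.37 in transplanted and 0.18 in native cells for Psmb8 over Psmb5, 0.27 and 0.12 for Psmb9 over Psmb6, and 0.10 and 0.08 for Psmb10 over Psmb7. By setting it was 0.24 in Sf3b1+/- and 0.04 in wild-type cells for Psmb8 over Psmb5, and 0.17 and 0.02 for Psmb9 over Psmb6. Psmb10 over Psmb7 went the other way, at -0.13 and -0.15. These contrasts have no test, and Psmb5 and Psmb6 lie in the brightest range, where the median of all genes was lower in Sf3b1+/- cells.

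The ATPases of the 19S base, which unfold substrates, did not move as a class: 3 were higher and 3 lower by genotype in transplanted cells, with a median of 0.00. Psmc6 was the lowest of them, with 0.21 in Sf3b1+/- transplanted cells against 0.77 in wild-type transplanted cells, and 0.31 in Sf3b1+/- native cells against 0.46 in wild-type native cells. As for Psma5, the wild-type transplanted array was high against the other 3, which gives differences of -0.56 and -0.16. Psmc5 went the other way, with 1.54 in Sf3b1+/- transplanted cells against 1.19 in wild-type transplanted cells, and 1.24 in Sf3b1+/- native cells against 1.28 in wild-type native cells, differences of 0.35 and -0.03. Psmc2 was nearly level on all 4 arrays, with 2.42 in Sf3b1+/- transplanted, 2.44 in wild-type transplanted, 2.46 in Sf3b1+/- native and 2.40 in wild-type native cells. Psmc1, Psmc3 and Psmc4 had genotype differences between -0.14 and 0.13 by the brightest probe of each. A second Psmc1 probe read 0.26 in transplanted and 0.03 in native cells, and a second Psmc3 probe read 0.09 and -0.05. By its brighter probe, Psmc1 was the 1 ATPase of 6 lower after transplantation in both genotypes. It read -0.19 in Sf3b1+/- and -0.25 in wild-type cells, where the second Psmc1 probe read 0.09 and -0.13.

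Of the other base subunits, Psmd2, a scaffold that docks shuttle factors, was higher in Sf3b1+/- cells. Its signal was 1.95 in Sf3b1+/- transplanted cells against 1.49 in wild-type transplanted cells, and 1.86 in Sf3b1+/- native cells against 1.76 in wild-type native cells, differences of 0.46 and 0.10. The second scaffold, Psmd1, gave 2.53 in Sf3b1+/- transplanted cells against 2.62 in wild-type transplanted cells, and 2.66 in Sf3b1+/- native cells against 2.74 in wild-type native cells. Psmd4, a ubiquitin receptor, gave 3.15 in Sf3b1+/- transplanted cells against 3.26 in wild-type transplanted cells, and 3.21 in Sf3b1+/- native cells against 3.28 in wild-type native cells. Both of these differed by -0.11 to -0.07 between genotypes, and neither was higher after transplantation. Differences of this size are near or under the standard deviation of a single spot within an array. As for Psmb2, a difference between arrays varies by more than that, and the spread leaves out variation between arrays.

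The lid removes ubiquitin chains, and Psmd14 is its deubiquitinating enzyme. Psmd14 showed the clearest split by setting of all members, with -0.15 in Sf3b1+/- transplanted cells against -0.94 in Sf3b1+/- native cells, and -0.14 in wild-type transplanted cells against -0.79 in wild-type native cells. The 2 transplanted arrays were nearly equal and lay 1.73-fold and 1.57-fold above the native ones. Its limma estimate for the setting, 0.72 ± 0.13 (SE), had the smallest adjusted p of all members, 0.104, which did not pass 0.05. Psmd13, a structural lid subunit, gave 1.81 in Sf3b1+/- transplanted cells against 1.36 in Sf3b1+/- native cells, and 1.85 in wild-type transplanted cells against 1.44 in wild-type native cells, again a split by setting of 0.45 and 0.42 with genotype differences of -0.04 and -0.07. Psmd8, singled out after its values were seen, differed by 0.67 in Sf3b1+/- and 0.38 in wild-type cells.

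Other lid subunits leaned toward the genotype. Psmd3 gave 3.09 in Sf3b1+/- transplanted cells against 2.81 in wild-type transplanted cells, and 3.15 in Sf3b1+/- native cells against 2.99 in wild-type native cells. Sf3b1+/- cells were higher in both settings, by 0.28 and 0.16, and 0.16 was the highest native difference of any compared member. Psmd11, which in worms and human stem cells is known to promote assembly of the full proteasome, gave -0.63 in Sf3b1+/- transplanted cells against -0.96 in wild-type transplanted cells, and -0.83 in Sf3b1+/- native cells against -0.94 in wild-type native cells. It was higher by 0.34 and 0.11. Psmd6, Psmd7 and Psmd12 differed by -0.06 to 0.10 between genotypes. A second, dimmer Psmd12 probe read 0.12 in transplanted and 0.17 in native cells, where the first read -0.02 and -0.04.

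The 3 chaperones that assemble the 19S base were dim and did not move together. Psmd5 gave -0.60 in Sf3b1+/- transplanted cells against -0.90 in wild-type transplanted cells, and -0.64 in Sf3b1+/- native cells against -0.75 in wild-type native cells, differences of 0.30 and 0.11. Psmd9 was level within 0.11 over all 4 arrays, at -1.29 in Sf3b1+/- transplanted, -1.39 in wild-type transplanted, -1.37 in Sf3b1+/- native and -1.38 in wild-type native cells. Its second, dimmer probe read 0.53 for the genotype in transplanted cells, where the first read 0.11. Psmd10, also known as the oncoprotein gankyrin, gave -1.25 in Sf3b1+/- transplanted cells against -1.04 in wild-type transplanted cells, and -1.53 in Sf3b1+/- native cells against -1.59 in wild-type native cells, a split by setting of 0.28 and 0.55. A second, dimmer Psmd10 probe read 0.11 in Sf3b1+/- and 0.23 in wild-type cells for the setting.

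The activators open the core in place of the 19S particle. Psme1 and Psme2 encode the interferon-inducible pair that forms cytoplasmic PA28. Psme1 was read by 10 spots and gave 3.59 in Sf3b1+/- transplanted cells against 3.50 in wild-type transplanted cells, and 3.26 in Sf3b1+/- native cells against 3.33 in wild-type native cells, with standard deviations over spots of 0.0159 to 0.0345. Its transplanted arrays were higher by 0.33 in Sf3b1+/- and 0.17 in wild-type cells. Psme2 gave 4.06 in Sf3b1+/- transplanted cells against 4.44 in wild-type transplanted cells, and 3.66 in Sf3b1+/- native cells against 3.92 in wild-type native cells. It was lower in Sf3b1+/- cells, with differences of -0.37 and -0.26, and higher after transplantation, by 0.41 in Sf3b1+/- and 0.52 in wild-type cells. A second Psme2 probe read -0.07 and -0.09 for the genotype and 0.73 and 0.71 for the setting, so the 2 probes differ on the genotype and not on the setting's direction.

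Psme3, the nuclear PA28 form, gave 0.03 in Sf3b1+/- transplanted cells against 0.26 in wild-type transplanted cells, and -0.16 in Sf3b1+/- native cells against -0.03 in wild-type native cells, differences of -0.23 and -0.13. Psme4, which encodes PA200, a nuclear activator linked to histone degradation, gave -2.28 in Sf3b1+/- transplanted cells against -1.72 in wild-type transplanted cells, and -2.05 in Sf3b1+/- native cells against -2.01 in wild-type native cells. The Sf3b1+/- transplanted array was the lowest and the wild-type transplanted array the highest, so the genotype differences were -0.55 in transplanted and -0.04 in native cells. Its second probe read -0.33 and 0.13.

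The regulator PI31, encoded by Psmf1, binds the 20S core and inhibits it in the test tube. Its signal was -2.03 in Sf3b1+/- transplanted cells against -2.83 in wild-type transplanted cells, and -2.58 in Sf3b1+/- native cells against -2.70 in wild-type native cells. The Sf3b1+/- transplanted array stood above the other 3, and the 1.74-fold difference in transplanted cells was the largest by genotype among the members, against 1.08-fold in native cells. Psmf1 has 1 spot per array and is among the dimmer members, its limma adjusted p for genotype was 0.394, and normexp background correction gave 0.63 on the log2 scale in place of 0.80.

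The difference of the genotype differences, transplanted minus native, was 0.69 for Psmf1, -0.51 for Psme4, -0.41 for Psma5, -0.41 for Psmc6, 0.38 for Psmc5 and 0.36 for Psmd2. It is the residual of the additive fit, so with these arrays it could not be tested. Its median was -0.13 over the 14 standard 20S subunits, 0.05 over the 17 subunits of the 19S base and lid and 0.00 over all compared genes.

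The 20S assembly chaperones Psmg1 to Psmg4 build the alpha ring, and all 4 were lower in Sf3b1+/- transplanted cells, by a median of -0.18. Of all 13033 compared genes 6455 were lower there. At least 20% lower was 1 of the 4, against 19.2% of all genes. Psmg4 gave 0.09 in Sf3b1+/- transplanted cells against 0.53 in wild-type transplanted cells, and -0.07 in Sf3b1+/- native cells against 0.11 in wild-type native cells, differences of -0.44 and -0.18. Psmg3 gave 0.42 in Sf3b1+/- transplanted cells against 0.59 in wild-type transplanted cells, and 0.17 in Sf3b1+/- native cells against 0.05 in wild-type native cells, which turns the sign between settings. Psmg2 gave 0.55 in Sf3b1+/- transplanted cells against 0.67 in wild-type transplanted cells, and 0.49 in Sf3b1+/- native cells against 0.61 in wild-type native cells, a difference of -0.12 in each setting. All 4 chaperones were higher after transplantation, by medians of 0.13 in Sf3b1+/- and 0.29 in wild-type cells. Of all compared genes 6620 and 6530 were higher.

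The tissue-specific subunits were at the edge of detection. Psmb11, the thymus subunit, was not well above background on any array. Psma8, an alpha subunit of the testis, was well above background on the 2 transplanted arrays alone, with -5.14 in Sf3b1+/- transplanted and -5.55 in wild-type transplanted cells, against -6.40 in Sf3b1+/- native and -6.08 in wild-type native cells. The transplanted signal was 2.40-fold the native one in Sf3b1+/- and 1.45-fold in wild-type cells. These ratios set a detected signal against 1 that was not well above background, so they are no firm bounds. Their direction was fixed by the filter, which Psma8 passed only through the transplanted arrays. Of the genes that match by symbol alone, Psme3ip1, whose product binds the nuclear PA28 form, gave -0.39 in Sf3b1+/- transplanted cells against -0.71 in wild-type transplanted cells, and -0.59 in Sf3b1+/- native cells against -0.71 in wild-type native cells. Psmc3ip, a meiotic recombination factor, differed by at most 0.07 in size between genotypes and was higher after transplantation by 0.30 and 0.38.

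Subunits and partners that the symbol rule misses were measured for 10 genes, of which 7 were lower in Sf3b1+/- transplanted and 8 in Sf3b1+/- native cells, with medians of -0.15 and -0.10. Of all 13033 compared genes 6455 and 6551 were lower. Sem1, a small lid subunit, differed by -0.41 and -0.18, and Pomp, the chaperone that completes the beta rings, by -0.26 and -0.18. Ecpas, a proteasome-binding adaptor, stood at -0.41 and -0.05, and the ubiquitin receptor Adrm1 at 0.32 and 0.11. Sem1 and Pomp were higher after transplantation by 0.08 and 0.18 in Sf3b1+/- cells and by 0.31 and 0.25 in wild-type cells. In limma 0 of the 10 passed an adjusted p of 0.05 for either term.

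The regulators of proteasome genes had a median genotype difference of 0.02 in transplanted and -0.23 in native cells over 7 genes. Maff, a small Maf partner of Nfe2l1, was -0.28 in Sf3b1+/- native cells against 0.75 in wild-type native cells and differed by -0.22 in transplanted cells. Mafk was higher after transplantation by 1.14 in Sf3b1+/- and 0.51 in wild-type cells and Mafg by 0.75 and 0.62. Ngly1, the enzyme that processes Nfe2l1, was well above background on 3 arrays. Nfe2l1 itself was dim and differed by 0.21 in transplanted and -0.28 in native cells, and none of the 7 passed in limma.

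Over 14 ubiquitin and shuttle genes the genotype medians were -0.02 in transplanted and -0.12 in native cells. In each setting 8 of the 14 were lower, against 6455 (transplanted) and 6551 (native) of all 13033 compared genes. Rps27a, which encodes ubiquitin fused to a ribosomal protein, differed by -0.65 and -0.28, and Ubqln4, a shuttle factor, by 0.45 and 0.14. Unlike the standard 20S core, this list was not higher after transplantation, with medians of 0.03 in Sf3b1+/- and -0.12 in wild-type cells. The difference between the lists was not tested.

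Among 12 genes of class I antigen processing and interferon signalling, Tap1, part of the peptide transporter and a neighbour of Psmb8 and Psmb9 on chromosome 17, was -1.02 in Sf3b1+/- transplanted cells against -1.55 in wild-type transplanted cells and differed by 0.10 in native cells. Irf8, an interferon regulatory factor of myeloid and dendritic cells, was higher after transplantation by 1.28 in Sf3b1+/- and 1.17 in wild-type cells (limma adjusted p = 0.059). Erap1, which trims peptides, was lower, with differences of -0.52 in each genotype, and the interferon-gamma receptor gene Ifngr1 differed by genotype by -0.45 in transplanted and -0.14 in native cells. The list's medians were 0.07 and -0.04 by genotype, and 0 of 12 genes passed for either term.

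Markers of other cells moved with both comparisons. After transplantation 6 of 7 macrophage and dendritic markers were at least 25% higher in Sf3b1+/- and 5 of 7 in wild-type cells, with medians of 1.24 and 1.02. Their summed scaled signal was 56.6 in Sf3b1+/- transplanted against 57.0 in Sf3b1+/- native cells, and 78.9 in wild-type transplanted against 65.9 in wild-type native cells. Most of each sum is Siglech, by far the brightest of the 7, which differed by -0.22 in Sf3b1+/- and 0.16 in wild-type cells. B-lineage markers went down, with summed signals of 2.24 against 3.31 in Sf3b1+/- and 2.52 against 8.58 in wild-type cells, and Pax5 was not well above background on any array. By genotype, 7 of 7 megakaryocyte markers were at least 25% higher in Sf3b1+/- transplanted and 6 of 7 in Sf3b1+/- native cells, with summed signals of 30.2 against 15.8 and 20.2 against 12.9. Stem and progenitor markers summed to 41.7 in Sf3b1+/- transplanted, 41.7 in wild-type transplanted, 57.8 in Sf3b1+/- native and 58.1 in wild-type native cells. Genotype medians in transplanted and native cells were -0.79 and -1.65 for 6 B-lineage markers, of which 4 and 6 were at least 20% lower, and -0.21 and -0.35 for 7 macrophage and dendritic markers. They were -0.29 and -0.12 for 7 neutrophil, -0.65 and -0.38 for 8 T and NK and 0.08 and 0.75 for 5 erythroid markers. The part of these cell types in the proteasome differences was not tested.

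All values so far are relative to the bulk of each array. Relative to spike-in RNA, the median of all compared genes was higher in Sf3b1+/- cells by 0.60 in transplanted and 0.22 in native cells, and higher after transplantation by 0.80 in Sf3b1+/- and 0.42 in wild-type cells. RNA input was 20 ng on every array, so this scale cannot read RNA per cell. It rests on 8 spike-in probes, whose mean log2 signal was 11.2 on both transplanted and 11.5 on both native arrays. What lies behind these shifts was not tested. On that scale the standard 20S medians were 0.29 and 0.04 by genotype, above 0 but below the bulk, and 0.98 and 0.73 by setting, above the bulk. The 19S base and lid stood at 0.58 and 0.18 by genotype, close to the bulk, and the immunoproteasome trio at 0.71 and 0.17.

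**Figure D5:**
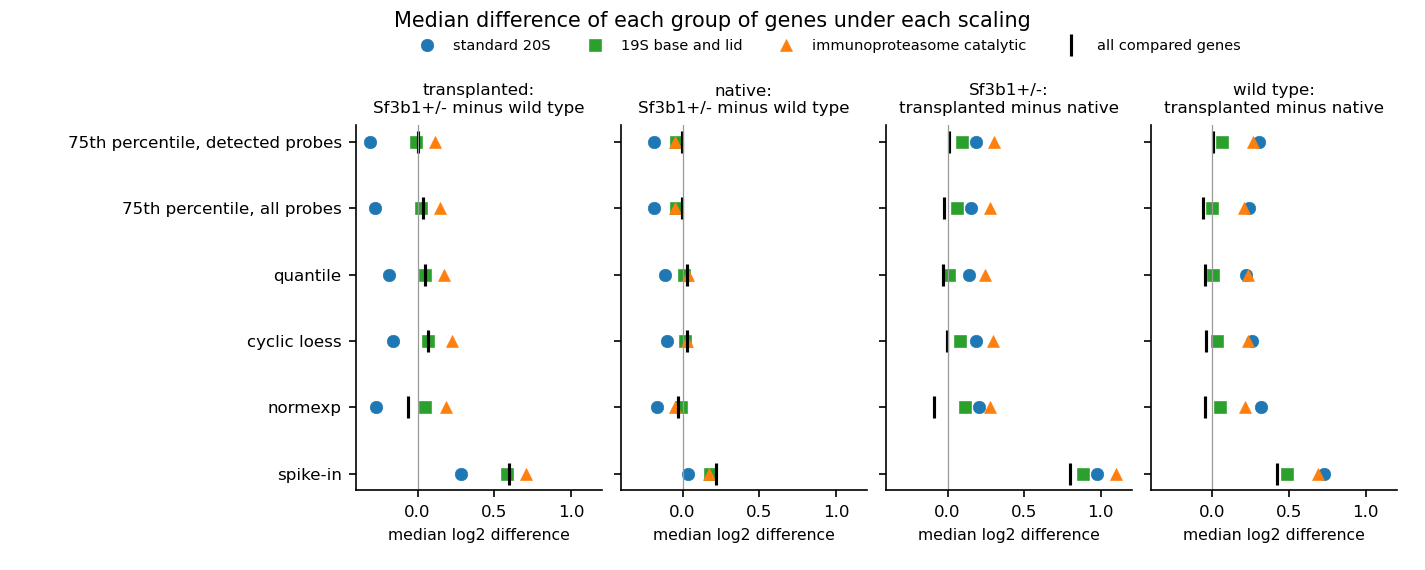
Median log2 difference of the standard 20S subunits (circles), 19S base and lid subunits (squares), immunoproteasome catalytic subunits (triangles) and all compared genes (black ticks) under 6 scalings, in the 4 comparisons. Spike-in scaling moves every median to the right, to 0.29 for the 20S core and 0.60 for all genes in the transplanted genotype comparison, while the 20S core stays left of all genes by genotype and right of them by setting.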

How the data were processed

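RNA of sorted LSK cells was measured on 4 single-colour Agilent arrays of design 028005, 1 for each group in the labels; 20 ng of RNA with added spike-in transcripts was amplified and labelled with Cy3, per the labels. The deposited scanner files hold spot intensity, from which Feature Extraction 10.7.1.1 had subtracted background and spatial trends within each array, per the file headers. Values in the deposited series table are ratio values: judged from the values, the linear processed signal divided by a constant for each array.

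Control and outlier spots were left out. Replicate spots were averaged as log2 values, and the brightest probe represented its gene. Of 55681 probes, 27509 were named by RefSeq accession (GRCm38.p6, used for names and promoter windows). Each array was scaled to the 75th percentile of probes that the scanner software called well above background on all 4 arrays, since 49.5% of spots were detected on average. The additive fit used lmFit and eBayes of limma 3.58.1 under R 4.3.3, with data.table (version 1.17.8) for reading; tests were two-sided with Benjamini-Hochberg adjustment over 13033 genes and 3.05 prior degrees of freedom, and the fit was tested on simulated data. Differences between 2 arrays were not tested, and the number of arrays limits the precision.

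Alternatives were a percentile over all probes, quantile, cyclic loess and spike-in scaling (8 spike-in probes), normexp with an offset of 50 (on the median spot signal, since the files hold no mean signal), stricter and no filters, the mean of a gene's probes, the series table, a single term and fewer members. Values on every array were printed for catalytic subunits, activators and, in each class, the members with the largest and smallest genotype difference; up to 4 genes of each other list were named, and some genes of those lists are not reported here. The members and lists were chosen with earlier results of these data known.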

Additional observations from a re-analysis of the deposited data

How the results depend on the processing

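The median over all members kept its sign under every alternative to scaling, filter, probe and membership in both setting comparisons. In native cells the genotype median kept its sign under every alternative but 1, spike-in scaling, with 0.15. However, it shrank from -0.07 to -0.01 with quantile normalization and with cyclic loess, where all compared genes stood at 0.03. In transplanted cells the genotype median, -0.05, was 0.01 with cyclic loess and 0.54 with spike-in scaling. Spike-in scaling also moved the setting medians to 0.98 in Sf3b1+/- and 0.62 in wild-type cells. Under it, most of the 31 members that were lower in Sf3b1+/- transplanted cells turned to higher. The standard 20S median there went from -0.31 to 0.29. Among the members that turned were Psma7 (0.16), Psmb4 (0.23), Psme4 (0.039), Psme2 (0.22) and Psmc6 (0.031), each below the shift of all genes, 0.60. The cause was the scaling's own shift of all genes.

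By genotype in transplanted cells, the members at least 25% higher and at least 20% lower numbered 5 and 9; they numbered 8 and 5 with quantile normalization, 8 and 4 with cyclic loess and 37 and 0 with spike-in scaling. In native cells spike-in scaling gave 6 higher members. By setting it gave 49 members higher in Sf3b1+/- and 43 in wild-type cells. The members that passed for the setting in limma were 0, 3 with normexp and 32 with spike-in scaling, where all compared genes numbered 76, 1435 and 5153. With other alternatives all genes that passed for the setting numbered 0 with quantile normalization, cyclic loess, no filter and the mean of all probes, 7 with the series table, 32 without the genotype term, 56 with the percentile over all probes and 264 with the filter on all 4 arrays, and no member passed; for genotype no alternative passed a member, while all genes numbered 0, 33 with normexp and 528 with spike-in scaling. At an unadjusted p under 0.05, members numbered 0 for genotype, 7 with normexp, 6 with spike-in scaling and 1 with the filter on all 4 arrays; for the setting they numbered 12, 43 with spike-in scaling and 7 with quantile normalization, no filter and no genotype term. Members at least 20% lower numbered 0 in the native genotype comparison and in both setting comparisons; 1 was lower in native cells with the percentile over all probes, no filter and the series table, 1 by setting in wild-type cells with these and with quantile normalization, and 1 by setting in Sf3b1+/- cells with no filter and the mean of all probes. The native median of the immunoproteasome trio, -0.05, was 0.04 with quantile normalization and 0.03 with cyclic loess.

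No paired analysis was possible because each group has 1 array, and leaving out an array would leave no residual degrees of freedom. Psmb11, and Psma8 in native cells, were limited by background.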
